A study of Peromyscus californicus with 17 samples.

Results

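The lungs of 5 virgin and 6 bonded males of the California mouse, Peromyscus californicus, a monogamous rodent, were compared over all genes after each gene's values had been restored to the gene's own length. The animals were chosen by their labels and columns, V2 to V6 for the virgins and B1 to B6 for the bonded males. They make up 11 of the 17 animals of the series. Of 27786 genes in the table, 25439 had all 17 values restored, and 15102 of these reached at least 1 FPKM in at least 1 animal and were tested. FPKM are fragment counts scaled to 1 kilobase of gene length and to 1000000 fragments in the library.

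Bonded males had lived with a mate for 4 months when the lung was taken. Virgins were males of similar age kept 2 or 3 to a cage. The other 6 males (BD1 to BD6, bond-disrupted) had been paired equally long and were sampled 7 days after the pair was separated, and they enter here only through the shared estimate of the spread and as side values. All animals came from the outbred stock IS, were at least a year old according to the study's methods, and carried no transgene or drug treatment in the labels. Equal numbers mark relatives. These are siblings, except that 2 virgins were cousins of their counterparts, of which the study's text names V3. There is no virgin with the number of B1. Company in the cage and the pair bond differ together between the groups and cannot be told apart. Each animal gave 1 library of total lung RNA, so n is 5 virgins and 6 bonded males throughout.

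The lung exchanges gas across flat alveolar type 1 cells that lie against a dense capillary bed. Alveolar type 2 cells make surfactant, the lipid and protein film that keeps the alveoli open, and can replace type 1 cells. The conducting airways are lined by club cells, which secrete secretoglobins, and by ciliated cells, which move mucus, while resident macrophages, lymphocytes and complement proteins guard both surfaces. The question of the comparison was whether lungs of paired males differ in RNA from those of males without a mate.

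In the deposited table, the reads of a gene were not divided by that gene's length. In the first column they had been divided by the length of the gene 1 row above, and in each later column by that of a gene 1 row further up. The effect runs along diagonals of the table and looks like a change from animal to animal. Gene lengths and library depths were recovered as the numbers at which every value turns into whole reads. With the shifted lengths, which were chosen to make reads whole, 98.5% of 319566 values were whole within 0.001 of a read. With the gene's own length in their place the share was 0.5%. Of 27787 lengths, 26578 were settled. Of 1573 small RNA genes, whose RefSeq length holds no introns, 1503 had exactly the RefSeq length.

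Taking out the diagonal effect shrank the differences between animals. For 13738 genes averaging 100 reads or more, the median SD over the 17 animals was 1.54 on the log2 scale as deposited and 0.227 with own lengths. Deviations in neighbouring columns, compared 1 row apart, had a Pearson r across genes of 0.9336 as deposited and −0.0045 with own lengths. Depths were 37.96 to 44.9 in virgins and 30.79 to 68.23 in bonded males, in units of 1000000 reads. They are known only up to a common factor of 2, because reads came in steps of 1/2 of the commonest unit.

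After the correction virgin and bonded lungs differed little. The median log2 fold change (virgin minus bonded, on the log2(FPKM + 1) scale) of all tested genes was 0.005. The central 95% of genes lay between −0.35 and 0.34. By limma, 0 of 15102 genes (0%) were called, which took a 2-fold change or more together with an adjusted p below 0.1, and adjusted p values ran from 0.96 (Hacd1) to 1.0. By limma without adjustment, a p under 0.05 was reached by 313 genes higher in virgins (2.07%) and 229 genes lower in virgins (1.52%). Values of the groups did not overlap for 48 genes with all virgins above (0.318%) and 24 with all virgins below (0.159%). With limma's voom on the recovered reads, 0 genes were called as well. The balance of the directions differed between settings. Without adjustment, quantile scaling gave 300 genes higher and 268 lower and a median-ratio factor 263 and 277. Voom, which also tested other genes (17384) and weighted the reads, gave 211 and 417, and voom with weights for animal quality 449 and 885.

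The spread between animals set the scale. The median absolute log2 fold change was 0.081, against a median standard error of 0.123 and a median SD within groups of 0.178 in virgins and 0.169 in bonded males. The difference between the group means was smaller than both SDs for 11216 genes (74.3%) and larger than both for 1443 (9.56%). For 14372 genes (95.2%) the 95% interval of the difference lay inside a 2-fold change in either direction. Among 6703 genes averaging 10 FPKM or more, this held for 6503 (97.0%). A fold change of 2 or more was reached by 38 genes, 11 higher and 27 lower in virgins, none of which passed the test.

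The genes that the uncorrected values called can be followed through the correction. As deposited, 113 of 18602 genes were called between virgins and bonded males, and 94 of them could be tested with own lengths. Their median absolute log2 fold change was 3.39 as deposited and 0.093 with own lengths. The largest was then 0.75, and 6 of the 94 had an unadjusted p under 0.05. Correlations between animals were also taken over the 1000 most variable genes, on each gene's deviations from its mean over virgins and bonded males. They were alike inside and across groups. Means were −0.118 ± 0.104 (SD) for 25 pairs within a group and −0.083 ± 0.14 for 30 virgin-bonded pairs. Such deviations pull correlations below 0 by construction. The pairs share animals, so the SD is only a description.

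**Figure D1:**
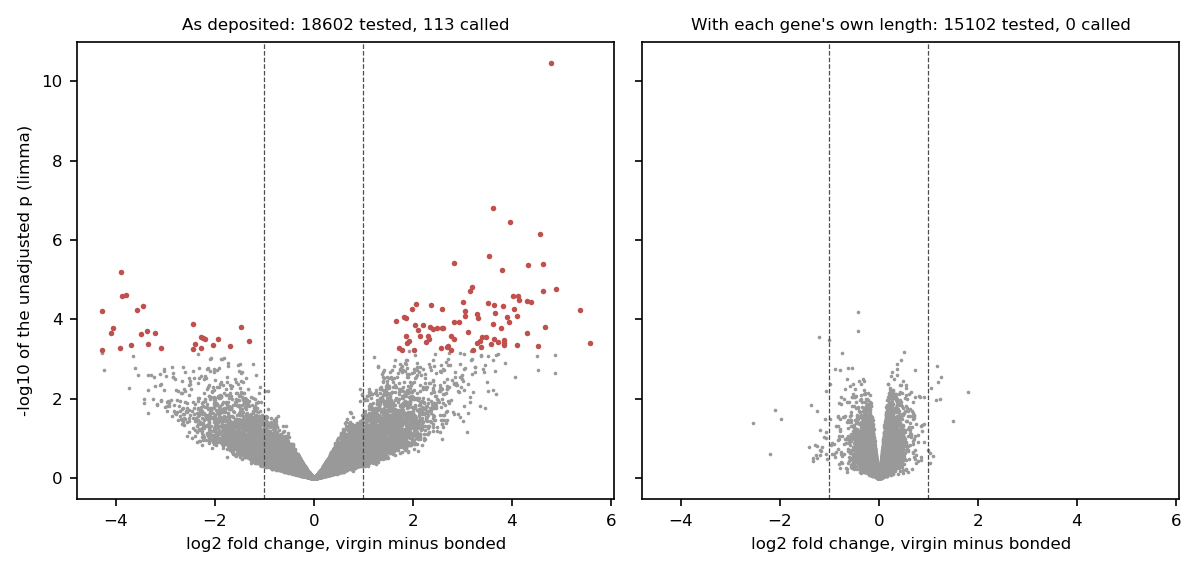
Log2 fold change (x axis, virgin minus bonded) against −log10 of the unadjusted limma p (y axis), 1 point per gene, with the deposited values on the left and own lengths on the right. Red points are called genes, 113 on the left and 0 on the right, and dashed lines mark a 2-fold change.

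The tissue label held for both groups. Sftpc, the surfactant protein made by type 2 cells, stood at 15380 to 26334 FPKM in virgins and 12823 to 22044 FPKM in bonded males. Ager, a receptor of type 1 cells, stood at 1391 to 1893 FPKM and 1128 to 1997 FPKM. Scgb1a1, the club cell secretoglobin, was the most abundant of these, at 53667 to 171963 FPKM in virgins and 49032 to 130215 FPKM in bonded males. Some defining genes of other tissues were near 0. Myh4 of fast skeletal muscle was at most 0.506 FPKM, Acan of cartilage at most 0.0206 FPKM and Rag1 of thymus at most 0.0976 FPKM. Others were not, such as Myl7 of atrial muscle, at 54.5 to 159 FPKM in virgins and 20.6 to 218 FPKM in bonded males.

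Cell types and pathways were read from 52 gene lists with 1198 symbols, of which 895 were tested. None of the 895 was called. An unadjusted p under 0.05 was reached by 16 members higher in virgins (1.79%, against 2.07% of all genes) and 9 lower (1.01%, against 1.52%), and 34 lists had no such member. Medians of the lists' log2 fold changes ran from −0.16 to 0.24. For each animal a list score was formed, the mean over members of the deviation from the gene's mean over the 11 animals on the log2 scale. Scores of virgins and bonded males overlapped for all 52 lists. In whole-lung RNA, fewer cells of a type and less RNA per cell cannot be told apart.

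**Figure D2:**
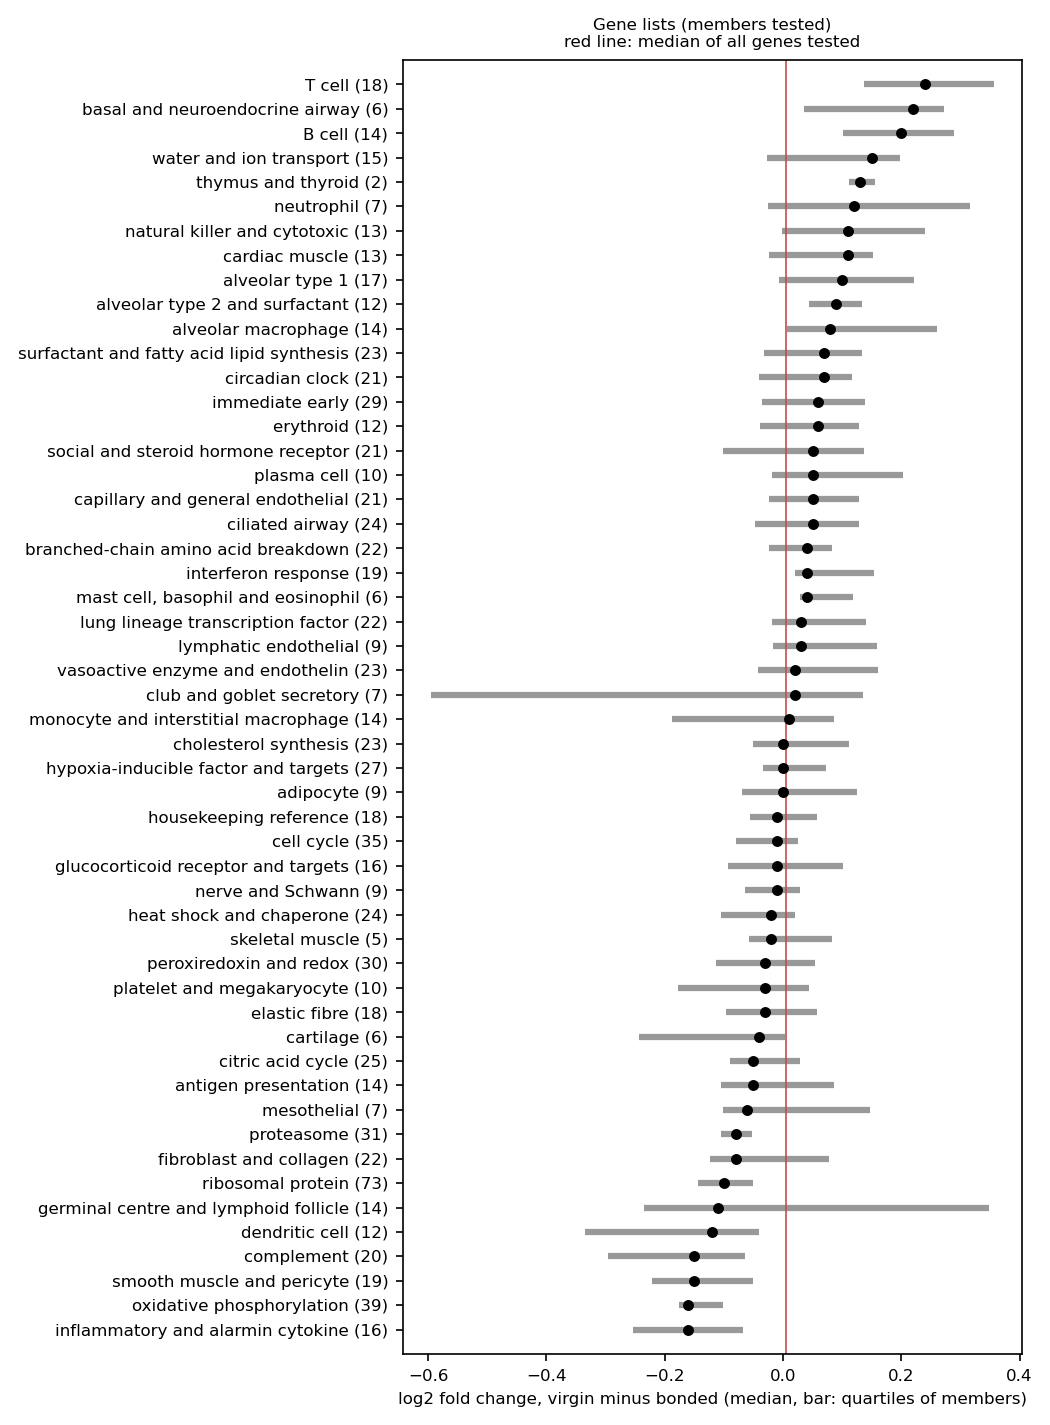
Median log2 fold change (virgin minus bonded) of each of 52 gene lists, with bars for the quartiles of the members and the number tested in parentheses. The red line is the median of all genes, and list medians run from −0.16 for inflammatory cytokines and oxidative phosphorylation to 0.24 for T cells.

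Alveolar epithelium was near the median of all genes. Type 2 and surfactant genes had a median log2 fold change of 0.09, with 10 of 12 above 0. Sftpb, a surfactant protein needed for the spread of the film, had the lowest p of the list. It stood at 2769, 3383, 2200, 3573 and 3318 FPKM in V2 to V6, and at 1711 to 2710 FPKM (median 2441) in bonded males. V4 lay inside the bonded range and the other 4 virgins above it. For Sftpb the log2 fold change was 0.39 (standard error 0.14). Sftpc itself differed by 0.05 (standard error 0.20), Sftpd by 0.08 (standard error 0.20) and the lipid transporter Abca3 by 0.10 (standard error 0.15).

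Type 1 genes had a median of 0.10, with 12 of 17 above 0, while their mean score was 0.05 lower in virgins. The list holds Igfbp2, an insulin-like growth factor binding protein made by mature type 1 cells, whose log2 fold change of −2.54 was the lowest of all genes named here. Ager differed by 0.13 (standard error 0.16), Hopx, a type 1 cell cofactor, by 0.04 (standard error 0.20), and Rtkn2 by −0.07 (standard error 0.23). The median of the alveolar type 1 list was −0.04 without V2 and −0.08 without V2 and V3.

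Airway genes spread widely between animals within both groups. The club and goblet score ran from −1.46 (V2) to 0.55 (V4) in virgins and from −1.16 (B1) to 1.37 (B2) in bonded males, with SDs of 0.83 and 1.13. Its 7 tested genes had a median of 0.02 and a mean score 0.21 lower in virgins. Bpifb1, a secreted protein of airway mucus, stood at 2.20 to 298 FPKM in virgins and 2.45 to 583 FPKM in bonded males. Scgb3a1, a secretoglobin of the larger airways, stood at 2.65 to 86.0 FPKM and 2.02 to 329 FPKM. Ciliated genes had a median of 0.05 over 24 members, and Foxj1, the master factor of cilia, stood at 10.7 to 54.6 FPKM and 16.6 to 68.8 FPKM. V2 was lowest and V4 highest in both scores among the virgins. How much airway each piece of lung held was not recorded in the labels, and its part in these values was not tested.

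Endothelium and mesenchyme were also close. Capillary and general endothelial genes had a median of 0.05 (14 of 21 above 0), with Pecam1, the junction protein of endothelial cells, at 169 to 226 FPKM in virgins and 170 to 223 FPKM in bonded males. Lymphatic endothelial genes had a median of 0.03. Smooth muscle and pericyte genes had a median of −0.15, with 16 of 19 below 0. Acta2, smooth muscle actin, stood at 203 to 341 FPKM in virgins and 208 to 472 FPKM in bonded males (log2 fold change −0.25, standard error 0.25). Bonded B6 had the highest score of this list (0.47) and bonded B3 the lowest (−0.43), and no smooth muscle gene had an unadjusted p under 0.05. The smooth muscle and pericyte median was −0.28 without B3, −0.08 without B6 and −0.06 without V3 or without V2 and V3.

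Fibroblast and collagen genes had a median of −0.08 over 22 members, and elastic fibre genes −0.03 over 18. Col1a1, the main chain of type I collagen, differed by −0.08 (standard error 0.19), Dcn, the proteoglycan decorin, by −0.20 (standard error 0.15) and Eln, elastin, by 0.22 (standard error 0.25). Dpt, dermatopontin, a small matrix protein that binds collagen, was the only fibroblast gene with an unadjusted p under 0.05. It stood at 145, 233, 174, 281 and 205 FPKM in V2 to V6 and at 52.1 to 174.5 FPKM (median 145) in bonded males. V2 and V4 lay inside the bonded range, and B6 was far below the other bonded males. On the log2 scale Dpt differed by 0.69 (standard error 0.29). Mesothelial genes, from the lining of the lung surface, had a median of −0.06.

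Lymphocyte genes stood slightly higher in virgins. T cell genes had the highest median of all lists, 0.24, with 15 of 18 above 0, and B cell genes had 0.20, with 12 of 14 above 0. No member of either list had an unadjusted p under 0.05. Cd4, of helper T cells, stood at 5.21, 5.94, 11.3, 4.16 and 3.63 FPKM in V2 to V6 and at 1.67 to 10.1 FPKM (median 3.92) in bonded males. Cd8a, of cytotoxic T cells, stood at 10.2 to 23.5 FPKM and 6.53 to 24.0 FPKM, and Cd79a, of the B cell receptor, at 24.0 to 56.5 FPKM and 14.1 to 56.6 FPKM. The groups overlapped widely for all 3 genes. T cell scores were highest in V4 (0.72) and B3 (0.60) and lowest in B5 (−0.52). B cell scores were highest in V2 (0.66) and lowest in B5 (−0.79). Leaving out each animal in turn moved the T cell median between 0.14 (without V4) and 0.37 (without B3), and the B cell median between 0.07 (without V2) and 0.34 (without V6).

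Of genes that guide lymphocytes to lymph nodes and follicles, Ccr7 had a higher median in virgins than in bonded males. Ccr7, the chemokine receptor of naive T cells and migrating dendritic cells, stood at 15, 17.4, 36.7, 12.9 and 13.7 FPKM in V2 to V6, and at 6.85 to 19.0 FPKM (median 9.39) in bonded males. This is a log2 fold change of 0.71 (standard error 0.29). V4, with the highest T cell score, was also far above the other virgins in Ccr7. The other way, Rgs13, a regulator of G protein signalling, stood at 1.29 to 2.06 FPKM in virgins and 1.8 to 5.88 FPKM in bonded males (log2 fold change −0.50, standard error 0.18). The germinal centre and follicle list as a whole had a median of −0.11 over 14 members. The median of the germinal centre and lymphoid follicle list was 0.009 without B3, 0.014 without V6 and 0.002 over genes averaging 1 FPKM or more.

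Myeloid and cytotoxic lists lay on both sides of 0. Alveolar macrophage genes had a median of 0.08 (10 of 14 above 0), monocytes and interstitial macrophages 0.01, dendritic cells −0.12 (9 of 12 below 0), neutrophils 0.12 (5 of 7 above 0), natural killer and cytotoxic cells 0.11, mast cells, basophils and eosinophils 0.04, and plasma cells 0.05. Marco, the scavenger receptor of alveolar macrophages, stood at 48.7 to 136 FPKM in virgins and 57.8 to 156 FPKM in bonded males. Trem1, an activating receptor of neutrophils, stood at 7.44, 4.13, 8.94, 4.14 and 3.90 FPKM in V2 to V6 and at 1.57 to 4.89 FPKM (median 3.61) in bonded males. Only V2 and V4 lay above the bonded range, and the log2 fold change of Trem1 was 0.57 (standard error 0.25). The neutrophil median ranged from −0.07 without V2 to 0.34 without V6, and was −0.05 without V2 and V3 and 0.48 with voom. The dendritic cell median was −0.06 without V6, −0.28 with a pseudocount of 0.1 and −0.32 with voom. The natural killer and cytotoxic median was −0.03 without V4, −0.04 without B6 and 0.24 without V6. Nr4a1, an immediate early gene that marks patrolling monocytes, had a log2 fold change of 0.53 (standard error 0.18), with 12.7 to 24.2 FPKM in virgins and 7.64 to 15.7 FPKM in bonded males. Sdc1, syndecan 1, which coats plasma cells and epithelium, had 0.34 (standard error 0.12).

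Genes of blood and neighbouring tissues spread between animals. Erythroid genes had a median of 0.06 and platelet genes −0.03. Both scores were highest in bonded B4, at 0.77 and 1.13. In that animal Ppbp, a platelet chemokine, stood at 176 FPKM, against 7.13 to 69.3 FPKM in the other 10 animals. Clec1b, the platelet receptor for podoplanin, was 1 of 895 tested list members with every virgin below every bonded male, against 0.159% of all genes, at 8.74 to 15.4 FPKM against 16.3 to 44.0 FPKM. Its log2 fold change was −0.80 (standard error 0.40). Cardiac muscle genes had a median of 0.11, with scores from −1.21 (B3) to 1.11 (B6). The cardiac muscle median turned to −0.13 without B3, −0.07 without V5 and −0.02 without B5, and was 0.38 without B6 and 0.25 with voom. Myl7, the light chain of atrial muscle, stood at 54.5 to 159 FPKM in virgins and 20.6 to 218 FPKM in bonded males, and skeletal muscle genes had a median of −0.02. Nerve, adipocyte and cartilage genes had medians of −0.01, −0.00 and −0.04, and the 2 tested thymus and thyroid genes 0.13. The part of blood, heart or fat taken along with the lung in other genes' values was not tested.

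**Figure D3:**
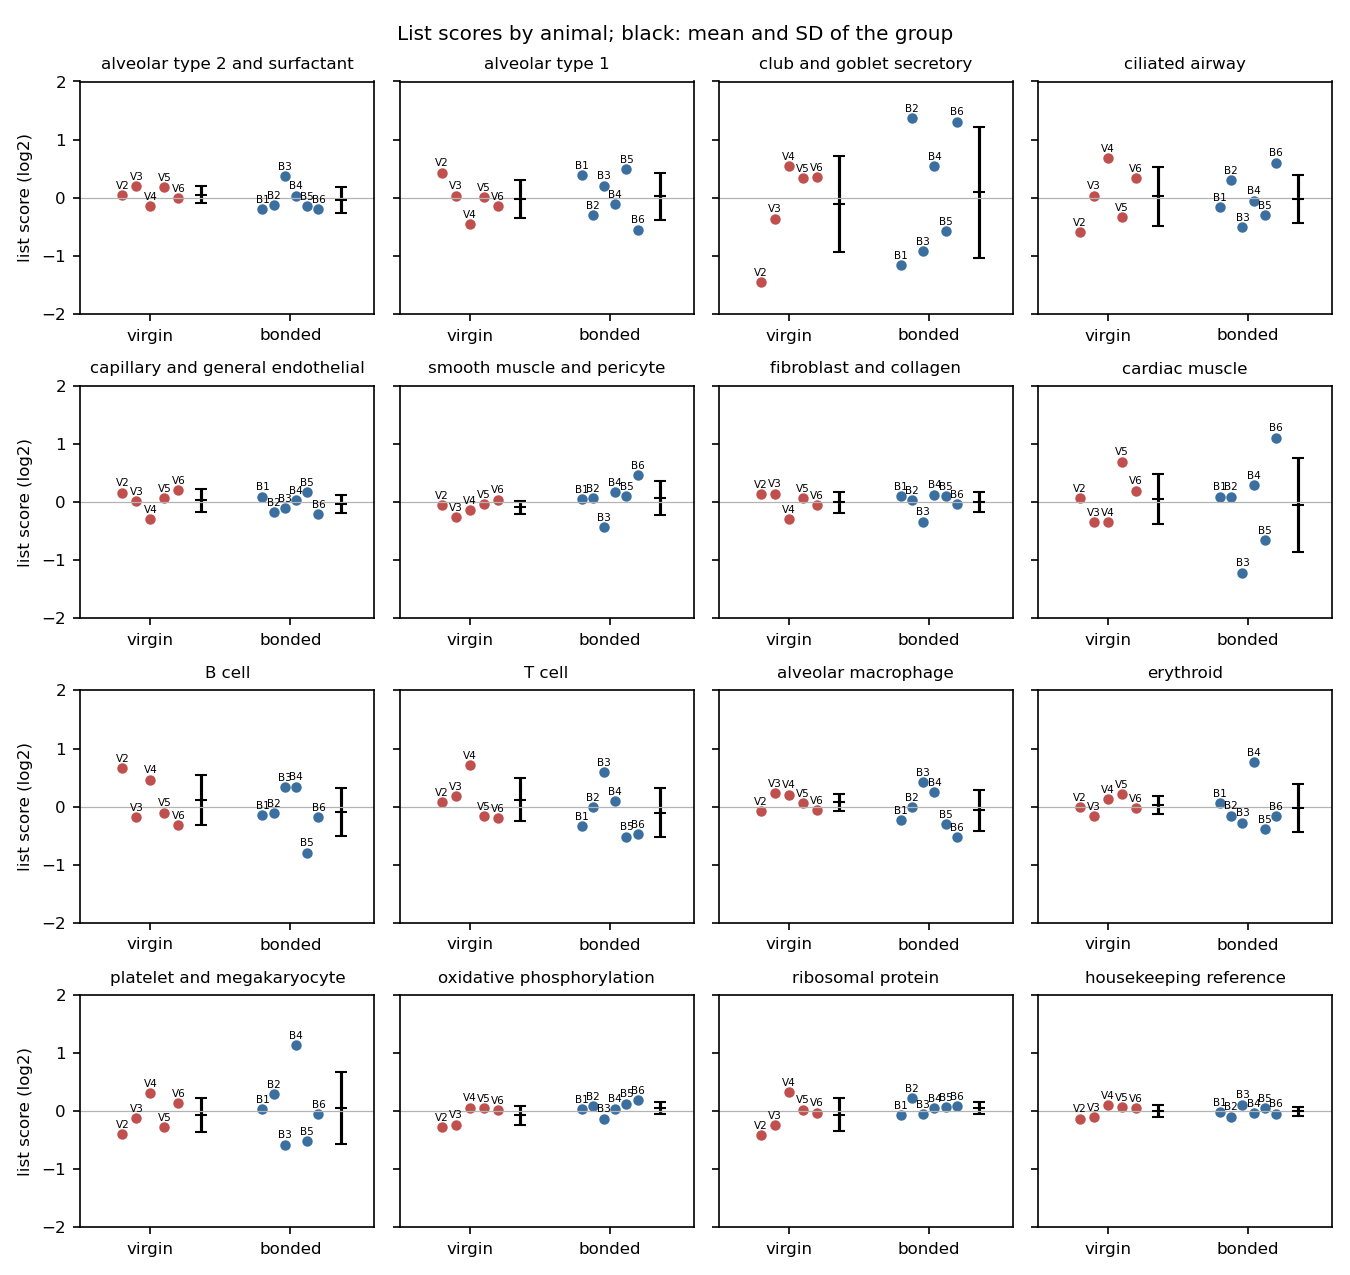
List scores (y axis, mean log2 deviation from each gene's mean over the 11 animals) of 16 lists in each virgin (red) and bonded (blue) male, with the group mean and SD in black. Virgins and bonded males overlap in every panel, and club and goblet, cardiac and platelet scores have the widest ranges of the 16.

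Genes of oxidative phosphorylation, the ribosome and the proteasome leaned lower in virgins, by small amounts. Oxidative phosphorylation genes had a median of −0.16, with 35 of 39 below 0, ribosomal protein genes −0.10, with 68 of 73 below 0, and proteasome genes −0.08, with 27 of 31 below 0. Ndufb6, a subunit of respiratory complex I, stood at 45.9, 51.1, 55.9, 59.8 and 55.9 FPKM in V2 to V6, and at 57.1 to 72.2 FPKM (median 63.3) in bonded males. Its log2 fold change was −0.24 (standard error 0.10), and V5 was the only virgin inside the bonded range. Ndufc2, of the same complex, differed by −0.28 (standard error 0.13). The ribosomal proteins Rpl11 and Rpl39 differed by −0.32 and −0.28 (standard errors 0.14 and 0.13), and Psmc4, an ATPase of the proteasome, by −0.18 (standard error 0.07). These 5 were the members of the 3 lists with an unadjusted p under 0.05, of 39, 73 and 31 tested, and all were lower in virgins, as were 1.52% of all genes at that p. Ribosomal proteins have near-identical copies in rodent genomes, and how the counting treated reads that match several copies is not given in the sources used here.

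Short genes moved with these lists. The median log2 fold change was −0.065 for 1822 genes under 1000 bases, −0.03 for 3007 genes of 1000 to 2000 bases, 0.008 for 5008 genes of 2000 to 4000 bases and 0.037 for 5265 genes of 4000 bases or more. V2 and V3 stood apart in this. Their median deviations for genes under 1000 bases were −0.171 and −0.126, against −0.047 to 0.094 in the other 9 animals, and for the longest genes 0.093 and 0.057, against −0.056 to 0.019. The ribosomal protein scores of V2 and V3 were −0.42 and −0.24, and their oxidative phosphorylation scores −0.28 and −0.23. Their proteasome scores were −0.11 and −0.12, against −0.01 to 0.08 in the other 9 animals. V4, the other way, had the highest ribosomal protein score (0.33) and the highest value for short genes. With V2 and V3 left out, an alternative chosen after the values were seen, the median of oxidative phosphorylation was −0.01, that of proteasome genes −0.02 and that of ribosomal protein genes 0.09. Without V2 alone the ribosomal protein median was −0.001. The part of RNA quality or library size selection in this was not tested.

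**Figure D4:**
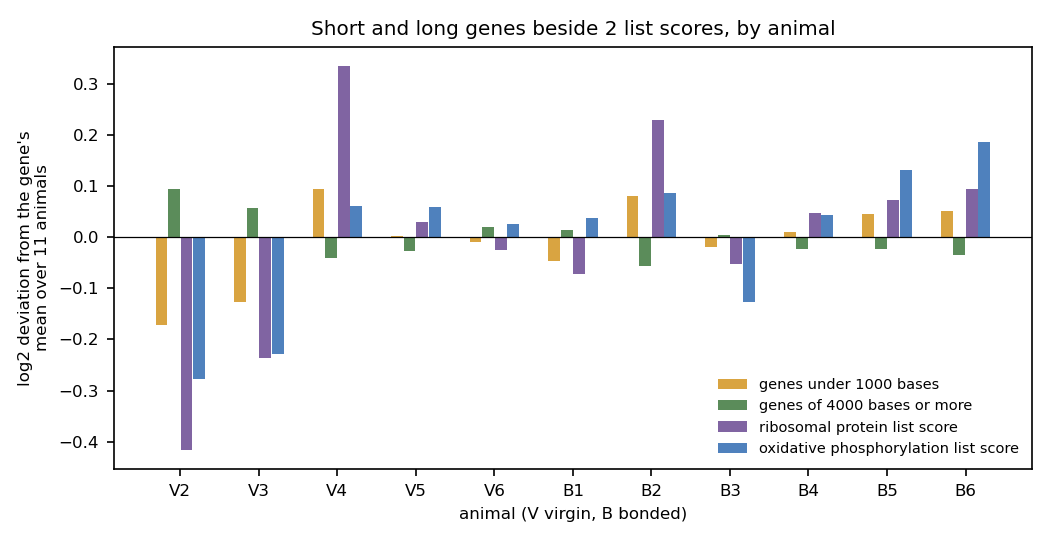
Median log2 deviation from each gene's mean over the 11 animals for genes under 1000 bases and of 4000 bases or more, beside the scores of 2 lists, for each virgin (V) and bonded (B) male. V2 and V3 are lowest in short genes (−0.171 and −0.126) and in both lists.

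Citric acid cycle genes had a median of −0.05, and their members with an unadjusted p under 0.05 went both ways. Mdh2 and Suclg1, enzymes of the cycle, differed by −0.21 and −0.20 (standard errors 0.09 for both), and Pc, pyruvate carboxylase, which feeds the cycle, by 0.31 (standard error 0.14). Mdh2 stood at 91.3 to 114 FPKM in virgins and 106 to 128 FPKM in bonded males. Genes of branched-chain amino acid breakdown had a median of 0.04 and one member with an unadjusted p under 0.05, Pcca of propionate breakdown (0.14, standard error 0.06). Surfactant and fatty acid lipid synthesis had a median of 0.07 over 23 genes, with Me1, the malic enzyme that supplies reducing power, at 0.22 (standard error 0.09). Cholesterol synthesis had a median of −0.00 over 23 genes.

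Complement and cytokine genes leaned lower in virgins, again without a member at an unadjusted p under 0.05. Complement genes had a median of −0.15, with 17 of 20 below 0, and inflammatory and alarmin cytokine genes −0.16, with 12 of 16 below 0. C3, the central complement protein, stood at 43.8 to 97.5 FPKM in virgins and 50.1 to 168 FPKM in bonded males (log2 fold change −0.32, standard error 0.40). Il18, a cytokine activated by inflammasomes, stood at 16.8 to 24.4 FPKM and 16.5 to 34.4 FPKM (log2 fold change −0.32, standard error 0.19). Tnf and Il1b differed by −0.31 (standard error 0.27) and −0.14 (standard error 0.42). Without B3, which had the highest cytokine score (0.58), the inflammatory and alarmin cytokine median was −0.05, and with voom it was −0.35. The complement median was −0.09 without B4 and −0.26 with voom. Interferon response genes had a median of 0.04, and antigen presentation −0.05.

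Genes of water and ion transport, which keep the fluid layer of airways and alveoli thin, had a median of 0.15 (10 of 15 above 0). Of the 15, 4 were higher in virgins at an unadjusted p under 0.05, against 2.07% of all genes, in a list singled out here for that count. Ano1, a chloride channel, stood at 20.1, 22.3, 10.8, 16.1 and 23.5 FPKM in V2 to V6, and at 9.39 to 16.4 FPKM (median 11.9) in bonded males. Its log2 fold change was 0.54 (standard error 0.16), with V2, V3 and V6 above all bonded males. Aqp4, a water channel, stood at 4.13, 1.21, 1.13, 1.78 and 1.05 FPKM in virgins and at 0.571 to 1.31 FPKM in bonded males (0.48, standard error 0.19), where V2 and V5 alone exceeded the bonded range. Scnn1b, a subunit of the epithelial sodium channel, differed by 0.24 (standard error 0.10) and Nedd4l, the ligase that removes this channel, by 0.15 (standard error 0.06). Aqp5, the water channel of type 1 cells, went the other way in value, at −0.19 (standard error 0.33). The list's median was 0.11 without V2 and V3 and 0.09 without B1.

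Redox, stress and hypoxia lists were flat. Peroxiredoxin and redox genes had a median of −0.03 over 30 genes. Prdx6, the peroxiredoxin of lung epithelium, stood at 417 to 558 FPKM in virgins and 333 to 518 FPKM in bonded males (log2 fold change 0.10, standard error 0.16). Keap1, the repressor of the oxidant sensor Nrf2, was 1 of 895 list members with every virgin above every bonded male (0.318% of all genes), at 35.2 to 38.1 FPKM against 32.4 to 34.8 FPKM, with a log2 fold change of only 0.09. Targets of hypoxia-inducible factor had a median of −0.00 over 27 genes and the smallest spread of scores, −0.06 to 0.07. Within that list Arnt, the partner subunit of the factor, stood at 19.6, 19.6, 16.5, 15 and 14.5 FPKM in V2 to V6 and at 10.3 to 14.9 FPKM (median 14.3) in bonded males. For Arnt the log2 fold change was 0.31 (standard error 0.12). Heat shock and chaperone genes had a median of −0.02 over 24 genes.

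Hormone, clock and growth lists were flat as well. Glucocorticoid receptor targets had a median of −0.01 over 16 genes, and Fkbp5, a standard glucocorticoid target, stood at 5.95 to 9.09 FPKM in virgins and 3.81 to 9.11 FPKM in bonded males. Of 35 receptors of social and steroid hormones in the table, 21 were tested, with a median of 0.05. Oxtr, the oxytocin receptor, was under 0.13 FPKM in every virgin and bonded male. Circadian clock genes had a median of 0.07, immediate early genes 0.06, vasoactive enzymes and endothelin 0.02 and cell cycle genes −0.01 over 35 members. Lung lineage transcription factors had a median of 0.03, with Klf5 at 0.25 (standard error 0.11) and Nkx2-1, the master factor of lung epithelium, at 0.05 (standard error 0.12). Basal and neuroendocrine airway genes had a median of 0.22, but from only 6 genes, and 0.12 without V4. Housekeeping genes had a median of −0.01 over 18 members.

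The largest fold changes among named genes with an unadjusted p under 0.05 and a mean of at least 1 FPKM were taken next, 10 in each direction. None passed adjustment, where each limma adjusted p was 1.0. Prelp, a small leucine-rich proteoglycan of connective tissue, was the highest. It stood at 24.6, 111, 76.6, 145 and 128 FPKM in V2 to V6 and at 21.9, 16.8, 15.5, 54.9, 19.4 and 23.9 FPKM in B1 to B6. V3 to V6 lay above every bonded male, while V2 lay below B4. The log2 fold change was 1.81 (standard error 0.58, 95% interval 0.58 to 3.04). Bond-disrupted males overlapped both groups, at 17.4 to 236 FPKM. Dpt and Lama2, a laminin chain of basement membranes, also of the matrix, were among the 10. Lama2 stood at 8.23, 10.9, 5.79, 14 and 7.96 FPKM in virgins and 2.26 to 8.12 FPKM in bonded males (0.68, standard error 0.27).

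Pnma6a, of a gene family derived from a retrotransposon, showed a pattern of presence and near absence. It stood at 4.75 to 9.18 FPKM in the 5 virgins, at 4.32 to 6.05 FPKM in B1, B3 and B6, and at 0.0 to 0.0485 FPKM in B2, B4 and B5. The log2 fold change was 1.5 (standard error 0.66), and bond-disrupted males also fell on both levels, from 0.0473 to 5.85 FPKM. Smim38, which encodes a small membrane protein, differed among the virgins, at 8.47, 9.77 and 9.68 FPKM in V2, V3 and V5 and at 2.42 and 2.79 FPKM in V4 and V6, against 1.59 to 3.53 FPKM in bonded males. Ccr7 and Trem1, described above, Chml, a Rab escort protein (0.62), and Slc26a2, a sulfate transporter (0.59), were also among the 10.

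In the other direction Igfbp2 stood lowest, at −2.54 on the log2 scale (standard error 1.14, 95% interval −4.95 to −0.13). It stood at 5.30, 0.228, 0.212, 0.154 and 0.228 FPKM in V2 to V6 and at 38.5, 2.97, 23.6, 0.713, 81.1 and 0.611 FPKM in B1 to B6. V2 lay inside the bonded range and the other 4 virgins below it, while bonded males themselves ranged over more than 100-fold. Bond-disrupted males ranged from 0.183 to 34.1 FPKM. Meox1, a homeobox factor of mesenchyme, stood at 6.52, 1.69, 1.96, 7.39 and 1.24 FPKM in virgins and 2.63 to 19.8 FPKM (median 10.4) in bonded males (−1.37, standard error 0.50). Orm1, the acute-phase alpha-1-acid glycoprotein, stood at 174, 562, 642, 412 and 72.1 FPKM in virgins and 342 to 1288 FPKM (median 583) in bonded males (−1.25, standard error 0.48).

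Cnr2 and St6galnac5 had every virgin below every bonded male. Cnr2, the cannabinoid receptor of immune cells, stood at 5.31, 3.55, 2.95, 4.32 and 3.71 FPKM in V2 to V6 and at 6.05 to 10.6 FPKM (median 9.47) in bonded males. The log2 fold change was −1.0 (standard error 0.30, 95% interval −1.64 to −0.36). St6galnac5, a sialyltransferase that makes gangliosides, stood at 1.6, 1.09, 0.492, 1.46 and 0.529 FPKM in virgins and at 2.03 to 3.33 FPKM (median 2.75) in bonded males (−0.89, standard error 0.24). Bond-disrupted males again overlapped both groups, at 1.98 to 14 FPKM for Cnr2 and 0.861 to 4.04 FPKM for St6galnac5. Fzd2, a receptor for Wnt ligands, stood at 3.89, 7.15, 4.04, 3.65 and 1.64 FPKM in virgins and 6.25 to 9.13 FPKM in bonded males (−0.79, standard error 0.21), with V3 alone inside the bonded range. Stpg1 (−0.83), Pou2af3, a coactivator in tuft cells (−0.82), Ccl24, an attractant of eosinophils (−0.71), and Slc23a3 (−0.65) completed the 10.

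**Figure D5:**
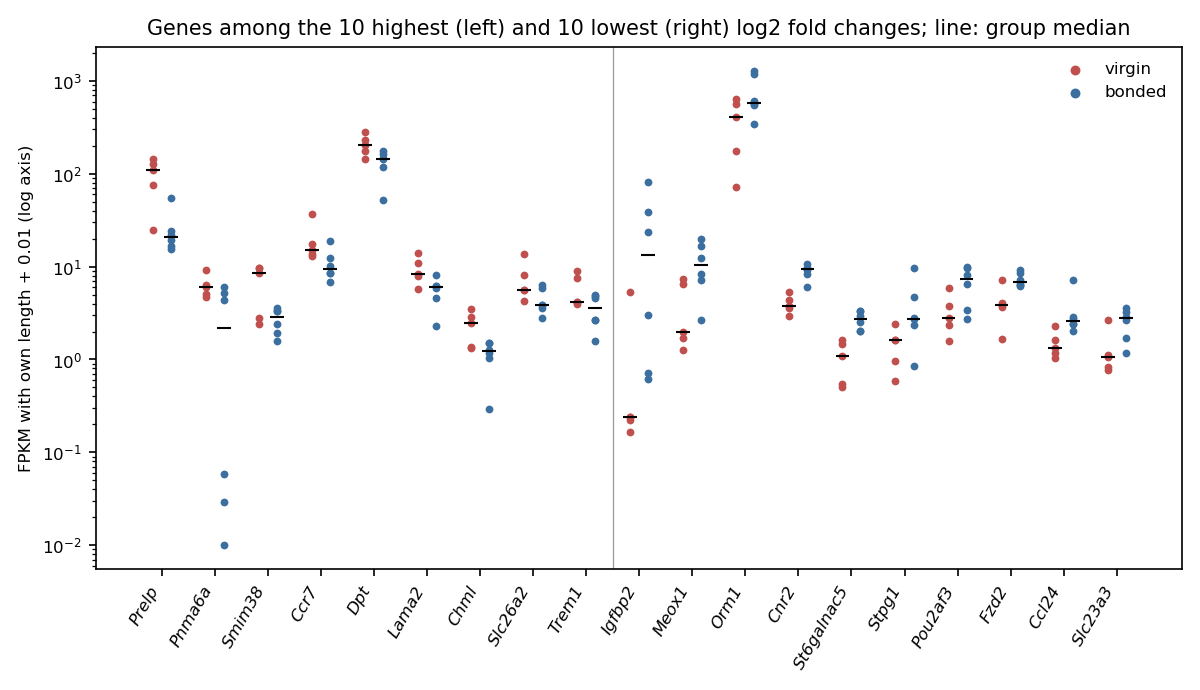
FPKM with own length plus 0.01 (log y axis) of the genes named above from the 10 highest (left) and the 10 lowest (right) log2 fold changes, 1 point per virgin (red) or bonded (blue) male, with a line at the group median. Groups separate fully only for Cnr2 and St6galnac5, and Igfbp2 and Pnma6a range most widely among bonded males.

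Genes chosen by the lowest p were mostly of low expression and small change. Hacd1, an enzyme of very long-chain fatty acid synthesis, had the lowest. It stood at 2.43, 2.45, 2.45, 3.38 and 2.68 FPKM in V2 to V6 and at 3.35 to 4.32 FPKM (median 4.08) in bonded males. V5 and B2 touched, and the other animals separated. Hacd1 differed by −0.43 on the log2 scale (standard error 0.08), at the adjusted p of 0.96 given above for limma, and bond-disrupted males overlapped both groups, at 2.90 to 3.82 FPKM. Bmf, which promotes cell death by binding Bcl2 proteins, stood at 8.49, 8.54, 5.74, 8.28 and 7.65 FPKM in virgins and 4.38 to 5.76 FPKM in bonded males (0.50, standard error 0.12).

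The other 8 of these carry only locus numbers. LOC128104486, protein-coding, stood at 14.4 to 23.6 FPKM in virgins and 4.47 to 10.4 FPKM in bonded males, without overlap (log2 fold change 1.16, standard error 0.31), while bond-disrupted males covered 7.03 to 33.5 FPKM. The long noncoding RNA LOC128124046 stood at 4.63 to 11.8 FPKM in virgins and 9.35 to 28.1 FPKM in bonded males (−1.21, standard error 0.26). The snoRNA LOC128110249 stood at 8.68 to 13.3 FPKM and 14.8 to 31.2 FPKM, with all virgins below (−0.75, standard error 0.18). The long noncoding RNAs LOC128119798 (0.45), LOC128124448 (0.36) and LOC128121903 (−0.42) and the protein-coding LOC128120508 (0.37) differed by less.

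One gene was called when 1 animal was left out. LOC128094431, protein-coding, stood at 0.0107 to 0.0889 FPKM in virgins and at 1.22 to 2.08 FPKM in 5 of the bonded males, while B4 stood at 0.0144 FPKM. With all animals its log2 fold change was −1.0 (standard error 0.22, limma adjusted p = 1.0) with the pseudocount of 1, −2.74 with 0.1, −3.75 with 0.01 and −4.11 with voom. Without B4 limma gave an adjusted p of 0.0106. That value is a description and not a test, since B4 was the only bonded male at the level of the virgins and the gene passed the filter of 1 FPKM through bonded males alone. Bond-disrupted males stood at 0.0448 to 0.975 FPKM. Over the settings that kept B4 and used recovered lengths, its adjusted p ran from 0.655 to 1.0.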

How the data were processed

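Per the labels, total RNA of 17 male lungs (5 virgin, 6 bonded, 6 bond-disrupted) was made into directional libraries, 1 per animal. The authors deposited FPKM, fragment counts scaled to 1 kilobase of gene and 1000000 fragments of the library, for 27786 genes, and 0 columns were left unused. The submitters' processing notes name FastQC, Trim Galore 0.4.5, STAR 2.7.2, SAMtools 1.5, featureCounts and Subread 1.5.3. Genome build, strand setting and treatment of multimapping reads are not given in the sources used here, so no genome positions or sequences are printed. All gene names match RefSeq symbols of assembly ASM782708v3.

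Each deposited value was multiplied by the length of the gene as many rows above as its column number and divided by the gene's own length. Lengths and depths were solved as the values at which reads are whole. Genes without all 17 values were left out. Groups came from the labels. The 3 groups entered one limma fit (version 3.58.1, R 4.3.3) on log2(FPKM + 1), with moderated variances without a trend, two-sided tests, Benjamini-Hochberg adjustment over all tested genes and a call at 2-fold and adjusted p below 0.1. The filter was 1 FPKM in 1 or more animals. The pseudocount of 1 makes fold changes of low genes too small. A gene near the filter may have passed only through the group where it was higher. Scores and counts were made with pandas 2.3.3, numpy 2.4.6 and scipy 1.17.1 under Python 3.11.15. The recovery of lengths and the main limma fit were also run on a simulated table, and the other settings were not.

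Genes named are the 10 highest and 10 lowest log2 fold changes among named genes with an unadjusted p under 0.05 and a mean of 1 FPKM or more, the 5 lowest p values each way, and the defining or low-p members of lists. Some of these are not reported here. The members and the lists were chosen with earlier results of these data known. Alternatives were the deposited lengths, row, diagonal and column medians, pseudocounts of 0.1 and 0.01, other filters, a trend, only the 2 groups compared, quantile and median-ratio scaling, voom, an adjusted p under 0.05, a family block, and leaving out each animal. Leaving out V2 and V3 together was chosen after seeing the data.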

Additional observations from a re-analysis of the deposited data

Results flagged for a closer look

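Among the 164 groups of values checked, 16 had 1 animal far from the others of its group, 5 of them gene list scores and 11 single genes. By its construction, the threshold used (Dixon's 95% critical value) is passed by about 1 in 20 groups by chance. Bonded B3 stood low in the fibroblast and collagen score (−0.34) and in the elastic fibre score (−0.44), and high in the score for water and ion transport (0.1). Virgin V4 stood high in the cartilage score (0.36) and virgin V3 low in the interferon response score (−0.08), both on the log2 scale.

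Of the genes higher in virgins, Prelp stood high in B4 (54.9 FPKM) among bonded males, Dpt low in B6 (52.1 FPKM) and Chml low in B6 (0.284 FPKM). Ccr7 stood high in V4 (36.7 FPKM) among virgins, Bmf low in V4 (5.74 FPKM) and LOC128120508 low in V5 (2.66 FPKM). Of the genes lower in virgins, Igfbp2 stood high in V2 (5.30 FPKM), Slc23a3 high in V2 (2.62 FPKM) and Hacd1 high in V5 (3.38 FPKM). Ccl24 stood high in B3 (7.08 FPKM) and LOC128094431 low in B4 (0.0144 FPKM) among bonded males.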

How the results depend on the processing

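The correction of lengths decided the count of calls. As deposited, 113 genes were called, an unadjusted p under 0.05 was met by 924 genes higher and 632 lower in virgins, and 205 and 78 had no overlap. Row, diagonal and column medians in place of recovered lengths gave 5 called genes, 1080 and 681 at an unadjusted p under 0.05, and 213 and 135 without overlap. Of these 5 genes, 2 were also tested with recovered lengths, with an absolute log2 fold change of at most 0.40. Without the demand for a 2-fold change, limma on the values corrected by medians gave 83 genes an adjusted p under 0.1, the lowest 0.000242. Every other setting with all animals and recovered lengths called 0 genes, and its lowest adjusted p lay between 0.335 and 1.0.

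Without a filter, an unadjusted p under 0.05 was met by 529 higher and 401 lower genes, with more genes tested. With only the 2 groups compared 471 were higher, and with voom 211 were higher and 417 lower, or 449 and 885 with weights for animal quality, where the median of all genes was −0.028 and −0.034. The cause of these shifts was not tested.

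Leaving out each animal in turn gave 0 to 1 called genes (1 without B4), 220 to 533 genes higher and 181 to 349 lower at an unadjusted p under 0.05, and 64 to 174 and 31 to 98 without overlap. The highest of these counts other than the calls came without V4, and fewer animals make overlap rarer. Without V2 and V3 together, 234 and 132 genes had no overlap and 0 were called. The 20 genes with the largest fold changes kept their sign in every setting with own lengths, while 6 changed sign as deposited. Of 16 lists with a median of 0.1 or more in size, 5 changed sign when 1 animal was left out (alveolar type 1, cardiac muscle, neutrophil, natural killer, and germinal centre and follicle), and the last 2 also under other settings with all animals. The lists for alveolar type 1 cells, neutrophils and ribosomal proteins changed sign without V2 and V3.

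The family number as a block, over families 2 to 6, called 0 genes, with an unadjusted p under 0.05 for 437 higher and 322 lower genes and a lowest adjusted p of 0.551. Virgins and bonded males of the same number had deviations with a mean r of −0.02, against 0.005 for other numbers, and 1 of 5 virgins was closest to its own number. The kinship behind the numbers comes from the study's text and not from the labels. Low values are limited by depth, which is known only up to a factor of 2.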

Other observations

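Tuft cells are rare chemosensory cells of the airway, run by the factor Pou2f3 and its coactivators Pou2af2 and Pou2af3. After Pou2af3 and Rgs13 had been seen among the genes lower in virgins, 32 genes of tuft cells were listed and read as a description, with no test. Of the 26 that were tested, 20 had a log2 fold change below 0, 6 were lower and 0 higher in virgins at an unadjusted p under 0.05, against 1.52% and 2.07% of all genes, and the median was −0.20. Without the pair of genes that prompted the list, 24 genes had a median of −0.19, with 4 lower. Dclk1, a kinase used to mark tuft cells, stood at 1.09, 1.28, 0.95, 1.16 and 0.869 FPKM in V2 to V6 and at 1.07 to 2.33 FPKM (median 1.57) in bonded males. Sh2d6 stood at 1.88 to 3.24 FPKM in virgins and 2.03 to 8.22 FPKM in bonded males, and Trpm5, the cation channel of taste signalling, at 1.42 to 3.46 FPKM and 2.07 to 4.52 FPKM. Several of the genes, such as Kit and Vav1, are also expressed by blood cells.

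Tuft list scores were −0.06, −0.06, −0.07, −0.06 and −0.32 in V2 to V6 and −0.01, 0.19, 0.12, −0.05, 0.02 and 0.31 in B1 to B6. The virgins lay below the bonded males, narrowly so for B4. The genes were listed after these values were seen, so the order of the animals supports nothing further. Leaving out each animal in turn moved the list median between −0.13 (without B6) and −0.25 (without B4), and the count of lower genes between 3 (without V6) and 8 (without B1 or B4). Il25, the cytokine tuft cells release, differed by 0.00 (standard error 0.10). LOC128124046, the long noncoding RNA among the lowest p values, lies in the row next to Pou2af3 in the annotation, and whether the pair shares reads depends on strand and counting settings that are not given in the sources used here.

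Single genes with 2 levels were searched for without regard to group. For 16 of 25439 genes, at least 2 animals were under 1 FPKM and at least 2 at 10 FPKM or more, with a gap of 3 or more on the log2 scale between them. In 15 of the 16 both levels occurred in virgins and in bonded males. Of the 16, 0 separated the groups, against 0.318% of all tested genes with virgins above and 0.159% with virgins below. At those shares a count of 0 among 16 genes says little. Clec4g, a lectin of endothelial cells, was the only one with a full gene symbol, at 30.7 and 39.1 FPKM in V4 and V5 and at 0.194 to 0.396 FPKM in the other virgins. In bonded males it stood at 26.9 to 46.4 FPKM in B2, B3, B5 and B6 and at 0.667 and 0.353 FPKM in B1 and B4. Spp1, osteopontin, ranged from 4.18 to 220 FPKM in virgins and from 1.94 to 136 FPKM in bonded males.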
